A study of Mus musculus with 6 samples.

Results

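The genes described here are 8 genes of cholesterol synthesis and its control: Hmgcs1, Mvk, Idi1, Fdft1, Sqle, Cyp51, Insig1 and Srebf2. They were chosen by symbol, and each matched 1 of the 31053 features of the count tables. They were measured in single cells from the pancreatic lymph nodes of 6 mice with a floxed gene, 3 that also carried CD4-Cre (Cre-positive 1 to 3) and 3 that did not (Cre-negative 1 to 3). CD4-Cre acts in cells that express, or once expressed, Cd4, which takes in both CD4 and CD8 T cells. Both groups carried the floxed allele, and strain, sex and age are not given in the sources used here. The question of the study, by its title, is what acts within T cells in the sex bias of autoimmunity. Each group is 3 separate mice, with a library each.

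Cells make cholesterol from acetyl-CoA through the mevalonate pathway. The transcription factor SREBP2, encoded by Srebf2, is held in the endoplasmic reticulum by SCAP and the retention protein INSIG1 while sterols are plentiful, and moves on to activate the genes of the pathway when sterols run low. Insig1 is itself a target, so its protein closes a feedback loop. Lymphocytes are known to draw on the pathway when they divide, and naive T cells to keep it low.

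The libraries held 52857382, 61321105 and 58420889 UMIs (unique molecular identifiers, 1 per captured RNA molecule) in Cre-positive mice 1 to 3, against 47149014, 48614018 and 51499167 in Cre-negative mice 1 to 3. Of 8209 to 10936 barcodes per library, 51777 cells were kept in all, with 323 barcodes found in more than 1 library. Levels are in CPM, the gene's UMIs over all UMIs of the summed cells, scaled to a common total. Gates on marker UMIs gave 28487 T cells, 5455 B cells and 2145 myeloid cells. The Cd3 chain genes summed to between 2594 and 2894 CPM in T cells and to between 21.0 and 31.3 CPM in B cells. The B cell genes summed to between 4405 and 5207 CPM in B cells and to between 13.5 and 19.2 CPM in T cells. Cst3, a myeloid marker of the gates, also had UMIs in many lymphocytes, so a limit of 1 myeloid UMI left out deeper T and B cells. Gates without Cst3, a choice made after seeing the data, gave 35266 T, 12226 B and 1426 myeloid cells. Values from these gates stand beside many of the results, where they are called the wider gates. Leaving out cells with 10 or more UMIs of the haemoglobin genes Hba-a1 and Hbb-bs ended no call of the 8 genes. CPM of summed cells cannot tell more cells with a transcript from more transcripts per cell.

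In mm10, Hmgcs1 lies on chromosome 13 from 119690379 to 119708260, and Idi1 on the same chromosome from 8885501 to 8892451, both on the + strand. Chromosome 5 holds Cyp51 from 4081145 to 4104746 on the - strand, Insig1 from 28071363 to 28078662 and Mvk from 114444269 to 114460591, both on the + strand. Sqle (59315077 to 59331192) and Srebf2 (82147181 to 82205379) lie on the + strand of chromosome 15, and Fdft1 on the - strand of chromosome 14 from 63145150 to 63179578. Genes on the other strand overlap Hmgcs1 (Gm48342, 6190 bases), Fdft1 (Ctsb, 774 bases), Idi1 (Gm48574, 323 bases) and Cyp51 (Akap9, 166 bases). How strand was used in counting is not given in the sources used here, so reads of such a pair may have been shared. On its own strand Srebf2 overlaps Gm49502 (2110 bases) and Mir33 (69 bases), from which its reads may not have been separated whatever the use of strand.

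The 250 bases upstream of the RefSeq start in GRCm38.p6, the mm10 assembly, are shown for the genes the results turn on, from 6 members with an entry. They are chr13:8885356-8885605 (+) for Idi1, chr5:4104698-4104947 (-) for Cyp51, chr13:119690101-119690350 (+) for Hmgcs1, chr5:28071162-28071411 (+) for Insig1 and chr15:82147019-82147268 (+) for Srebf2. For Idi1, Cyp51, Insig1 and Srebf2 the 3′ end of the window lies within the longest annotated gene. Capitals mark CCAAT on either strand, the letters bound by NF-Y, and TCACNNCA on either strand, a loose form of the sterol regulatory element that SREBP proteins bind.
Idi1: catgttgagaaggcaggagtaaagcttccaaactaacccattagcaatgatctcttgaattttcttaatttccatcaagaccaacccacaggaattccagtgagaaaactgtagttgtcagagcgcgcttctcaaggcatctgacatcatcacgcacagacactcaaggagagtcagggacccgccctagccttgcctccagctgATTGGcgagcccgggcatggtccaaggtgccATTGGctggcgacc
Cyp51: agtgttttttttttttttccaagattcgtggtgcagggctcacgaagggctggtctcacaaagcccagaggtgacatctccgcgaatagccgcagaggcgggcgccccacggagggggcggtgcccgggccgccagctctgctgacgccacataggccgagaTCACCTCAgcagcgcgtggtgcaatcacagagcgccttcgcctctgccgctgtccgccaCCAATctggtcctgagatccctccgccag
Hmgcs1: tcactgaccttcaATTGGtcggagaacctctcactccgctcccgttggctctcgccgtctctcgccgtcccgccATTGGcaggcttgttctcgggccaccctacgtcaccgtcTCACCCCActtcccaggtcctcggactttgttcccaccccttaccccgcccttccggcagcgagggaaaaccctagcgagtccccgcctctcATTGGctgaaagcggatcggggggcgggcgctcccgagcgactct
Insig1: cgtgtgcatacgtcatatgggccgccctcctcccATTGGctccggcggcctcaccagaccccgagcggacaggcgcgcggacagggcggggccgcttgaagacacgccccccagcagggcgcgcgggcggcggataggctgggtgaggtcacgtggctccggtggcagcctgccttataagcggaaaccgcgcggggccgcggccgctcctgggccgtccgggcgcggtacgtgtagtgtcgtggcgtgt
Srebf2: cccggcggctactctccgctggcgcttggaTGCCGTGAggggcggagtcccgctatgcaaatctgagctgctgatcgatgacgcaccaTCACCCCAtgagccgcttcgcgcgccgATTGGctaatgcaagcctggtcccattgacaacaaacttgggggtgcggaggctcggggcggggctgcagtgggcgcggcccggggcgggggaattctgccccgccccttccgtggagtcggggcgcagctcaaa
CCAAT was found in 6 of 6 windows of the members and in 33.8% of all 32851 promoter windows. TCACNNCA, a form settled on after reading the sequences, was found in 3 of 6 (Cyp51, Hmgcs1 and Srebf2) and in 11.4% of all. The stricter TCACNCCAC was found in Hmgcs1 alone among the 6, with its match 137 bases before the start, and in 1.05% of all. GGGCGG, the letters of the Sp1 motif, stood in 6 of 6 and in 32.7%, and CACGTG, an E-box, in Insig1 alone and in 6.02%. Both strands were searched, TCACNCCAC is a case of TCACNNCA, and each match is a description of letters.

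Idi1 and Cyp51 were far higher in myeloid cells than in lymphocytes, while Insig1 and Srebf2 were not. Idi1, the isomerase that readies isoprene units for chain building, had 56.0, 138.8 and 53.9 CPM in the myeloid cells of Cre-positive mice and 82.5, 102.2 and 87.8 CPM in those of Cre-negative mice. In T cells it had 9.63, 13.1 and 11.7 CPM in Cre-positive mice and 10.6, 11.2 and 9.88 CPM in Cre-negative mice. The lowest myeloid value lay above every T and B cell value. Idi1 was 7.85-fold higher in myeloid than in T cells (log2 fold change 2.97, SE 0.145, adjusted p = 1.08e-12, edgeR's quasi-likelihood test with the mouse as a block). Against B cells, at 14.7 ± 2.29 CPM (SD, n = 6), it was 6.40-fold higher (adjusted p = 1.54e-11). Cyp51, the sterol 14-alpha-demethylase, had 48.9 ± 18.1 CPM in myeloid cells, 11.5 ± 1.27 CPM in T cells and 15.6 ± 4.68 CPM in B cells (SD, n = 6). It was 4.28-fold higher in myeloid than in T cells (adjusted p = 6.93e-15) and 3.48-fold higher than in B cells (adjusted p = 1.27e-13). In both comparisons the myeloid mice did not overlap with the lymphocytes.

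The folds of the other enzymes were smaller. Hmgcs1, which makes HMG-CoA, had 32.6 ± 9.44 CPM in myeloid cells, 21.4 ± 1.49 CPM in T cells and 19.5 ± 2.85 CPM in B cells (SD, n = 6). Its log2 fold change was 0.64 against T cells (SE 0.136, adjusted p = 8.64e-05) and 0.91 against B cells (SE 0.142, adjusted p = 1.55e-06). Fdft1, the squalene synthase, was higher by log2 fold changes of 0.81 against T (adjusted p = 3.07e-04) and 1.34 against B cells (4.25e-06), with any reads of Ctsb on the other strand not separated. Mvk, the mevalonate kinase, was higher by 0.45 against T (adjusted p = 0.0406) and 0.91 against B cells (0.00179), but neither passed in the wider gates (0.613 and 0.0855). Leaving out any Cre-negative mouse (adjusted p = 0.0887, 0.114 and 0.0577 for mice 1 to 3) or Cre-positive 1 (0.0618) also ended the Mvk call against T cells, as did no low-count filter (0.201), the strict gate of at least 3 marker UMIs and 0 of each other class (0.164) and cells thinned to 2000 UMIs each (0.33). Sqle, the squalene epoxidase, was higher than in T cells (0.66, adjusted p = 0.0134) and did not pass against B cells (0.41, adjusted p = 0.139). Its call against T cells was lost without Cre-positive 3 (adjusted p = 0.155), in the wider gates (0.0832), at the 5% mitochondrial limit (0.212) and with the strict gate (0.0527). In all, 6 of 8 members passed as higher in myeloid than in T cells, where 34.1% of 12019 genes did and 72.5% passed in either direction. Against B cells 5 of 8 passed as higher and 1 as lower, where 35.8% of 9502 genes passed as higher and 69.3% in either direction. The median log2 fold change of the members was 0.65 against T cells and 0.91 against B cells, beside -0.11 and -0.01 over all genes tested.

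The regulators followed another order. Srebf2 had 72.8, 82.7 and 78.9 CPM in the B cells of Cre-positive mice and 97.0, 62.9 and 73.5 CPM in those of Cre-negative mice. Its T cell values lay between 49.7 and 59.7 CPM, below all 6 B cell values. Srebf2 was lower in T than in B cells (log2 fold change -0.52, SE 0.0459, adjusted p = 2.22e-14) and lower in myeloid than in B cells (-0.30, adjusted p = 0.0143). The myeloid call was lost in the wider gates (adjusted p = 0.132), with DESeq2 (0.0971), and without Cre-negative 1 (0.0874) or Cre-positive 1 (0.0506). Against T cells its myeloid level of 55.6 ± 8.06 CPM did not pass (0.09, adjusted p = 0.432), though it did in the wider gates (0.26, 0.0304). Insig1 had 19.7 ± 7.01 CPM in myeloid cells, 22.4 ± 1.07 CPM in T cells and 20.9 ± 2.43 CPM in B cells (SD, n = 6). It passed in none of the 3 comparisons, with adjusted p of 0.0935 for T against B, 0.299 for myeloid against T and 0.694 for myeloid against B. In the wider gates T against B passed (0.23, adjusted p = 0.00198).

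Between the lymphocyte classes the enzymes split. Idi1 (-0.39, adjusted p = 2.82e-04), Cyp51 (-0.41, adjusted p = 2.45e-04) and Sqle (-0.36, adjusted p = 0.0167) were lower in T than in B cells. Fdft1 (0.47, adjusted p = 0.00361), Mvk (0.33, adjusted p = 0.0412) and Hmgcs1 (0.18, adjusted p = 0.0315) were higher in T cells. With Srebf2, 7 of 8 members passed, where 70.6% of 11479 genes did, so the count lies near the background. Mvk, Hmgcs1 and Sqle did not pass with DESeq2, with a mitochondrial limit of 5%, with the strict gate, or without Cre-positive 3 (adjusted p = 0.0694, 0.146 and 0.0665). Mvk was also lost without Cre-negative 1 (0.08), 2 (0.0907) or 3 (0.225), Hmgcs1 without Cre-negative 1 (0.0588) or Cre-positive 1 (0.0761), and Sqle without Cre-positive 2 (0.0945). With thinned cells Fdft1 (0.10, adjusted p = 0.587), Cyp51 (-0.23, 0.0588) and Mvk (0.0789) did not pass. With total-count scaling Mvk (0.0685) and Hmgcs1 (0.081) did not, nor Mvk with doublets kept (0.0765) or Sqle with no low-count filter (0.0633).

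**Figure D1:**
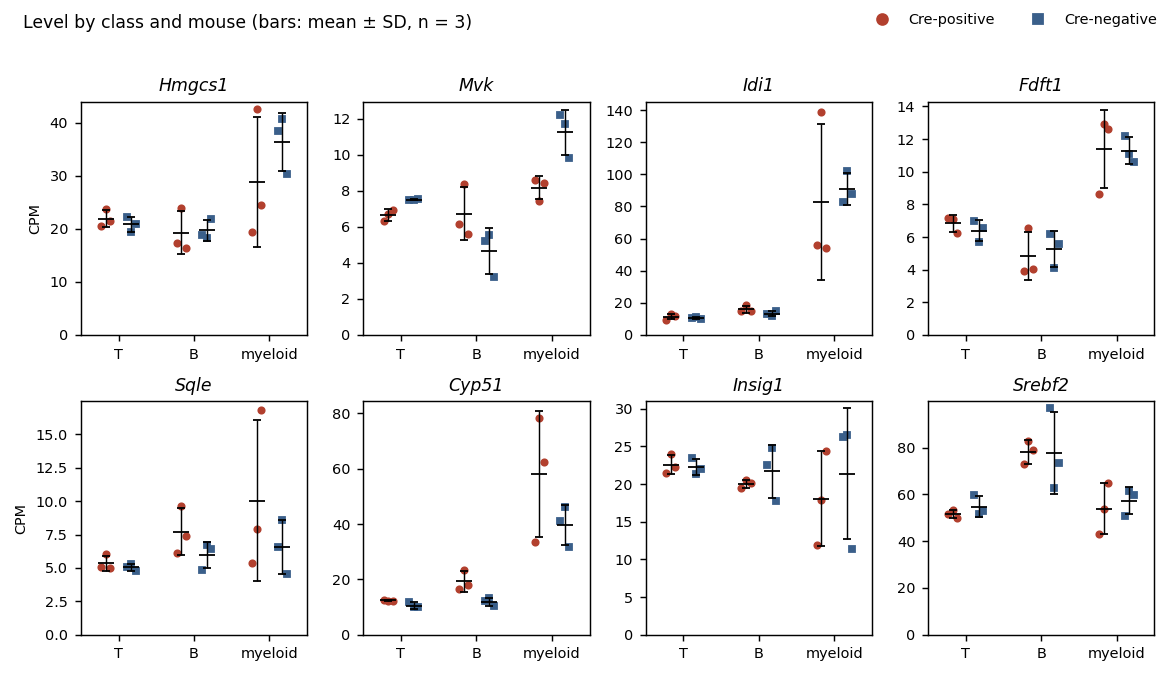
CPM of each gene (y axis) in T, B and myeloid cells (x axis), with a point per mouse and bars for mean ± SD over 3 mice. Idi1 and Cyp51 stand highest in myeloid cells in every mouse, and Srebf2 highest in B cells.

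The myeloid excess of Idi1 and Cyp51 was largest in mature cells. Myeloid cells with UMIs of both Ccr7 and Fscn1, genes of dendritic cells that have matured and migrated, numbered 438, and cells with neither numbered 967. Idi1 had 58.1, 259.6 and 132.6 CPM in the mature cells of Cre-positive mice and 102.5, 165.6 and 243.8 CPM in those of Cre-negative mice. In the other myeloid cells it had 26.3, 44.2 and 23.8 CPM in Cre-positive mice and 13.4, 31.7 and 23.1 CPM in Cre-negative mice. The states did not overlap over the 6 mice, and the fold was 7.09 (log2 fold change 2.83, SE 0.218, adjusted p = 6.86e-12, edgeR). Cyp51 had 92.1, 139.8 and 157.4 CPM in the mature cells of Cre-positive mice and 48.8, 83.7 and 79.5 CPM in those of Cre-negative mice. The other cells lay between 20.2 and 36.2 CPM, again without overlap (4.94-fold, log2 fold change 2.31, SE 0.220, adjusted p = 3.93e-10). Both calls held in the wider gates, at log2 fold changes of 3.03 and 2.16.

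Hmgcs1 was 1.86-fold higher in mature cells, at 41.6 ± 18.9 CPM against 27.6 ± 9.24 CPM in the others (SD, n = 6; adjusted p = 0.00834), and the states overlapped. Its call was lost in the wider gates (adjusted p = 0.0823) and with DESeq2 (0.0567) or total-count scaling (0.0902). Srebf2 had 64.1 ± 14.6 CPM in mature and 56.5 ± 9.46 CPM in other cells and did not pass (0.44, adjusted p = 0.0921). The remaining 4 members had between 18 and 31 UMIs over all mature cells and did not pass the low-count filter. Among them, Insig1 stood at 10.1 ± 8.91 CPM in mature and 28.2 ± 13.7 CPM in other cells, not tested. Of the 4 members tested 3 passed as higher, where 23.5% of 5221 genes did and 48.2% passed in either direction. Members had to reach the filter first, and a gene can reach it through the state where it is high. Insig1, with the lower mean in mature cells, was among those left out. The count therefore cannot decide whether the members as a set were higher in mature cells.

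Elsewhere in the pathway, Lbr, a sterol reductase of the nuclear envelope, fell in mature cells (-1.89, adjusted p = 1.33e-06). Of 20 synthesis enzymes 9 passed the low-count filter, which a gene can pass through the state where it is high, so no count over those 9 is given. The same filter left 6 of 9 efflux, storage and oxysterol genes, 4 of 7 uptake and trafficking genes and 2 of 9 fatty acid synthesis genes. Among them the exporter Abcg1 rose (2.14, adjusted p = 1.56e-09), and Nr1h3, which encodes the oxysterol receptor LXR-alpha (-2.01), and the lipid carrier gene Apoe (-5.18) fell. Npc2 (0.45) and Mylip (0.93) rose, and Npc1 (-2.55) and Lrp8 (-2.74) fell. Scap, the escort of SREBP2, also fell (-1.30, adjusted p = 0.00964), as did the desaturase Scd2 (-1.71, adjusted p = 4.42e-04) and Acly, which makes acetyl-CoA from citrate (-0.73, adjusted p = 0.0394). The cells with neither gene held markers of plasmacytoid dendritic cells (Siglech, Ccr9 and Cox6a2) that summed to between 1250 and 1866 CPM, against 0 to 74.2 CPM in the mature cells. Other myeloid cell types were not gated apart either, and the myeloid markers include Lyz2, Csf1r and C1qa. Rose and fell here name differences between gates that may hold different cell types, not changes followed within cells. The part of cell type in these differences was not tested. Mature cells were 18.3%, 28.7% and 16.5% of myeloid cells in Cre-positive mice and 16.4%, 24.4% and 13.4% in Cre-negative mice. Within each group the mouse with the highest share, replicate 2, also had the highest Idi1 and Cyp51 over all myeloid cells, a link that was not tested.

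Dividing T cells carried more Idi1 and Sqle. In 322 T cells with UMIs of division genes such as Mki67, Idi1 had 40.8, 52.6 and 35.2 CPM in Cre-positive mice and 23.0, 28.0 and 17.7 CPM in Cre-negative mice. In T cells without such UMIs it lay between 9.08 and 12.1 CPM. The states did not overlap, and Idi1 was 2.97-fold higher in cycling cells (log2 fold change 1.57, SE 0.209, adjusted p = 3.07e-12). Sqle had 11.9 ± 5.59 CPM in cycling and 5.12 ± 0.279 CPM in non-cycling T cells (SD, n = 6; 1.13, SE 0.343, adjusted p = 0.0065). The lowest cycling value, in Cre-positive 3, lay among the non-cycling ones, and Sqle did not pass with Cre-negative 1 (adjusted p = 0.0651) or Cre-positive 2 (0.0674) left out, at the 5% limit (0.0831) or with at least 4 division UMIs (0.077). These were 2 of 8 members called, both higher, where 23.6% of 10785 genes passed in either direction and 12.5% as higher. Fdft1 (0.74, adjusted p = 0.0829), Mvk (0.54, 0.252) and Cyp51 (0.53, 0.124) had positive log2 fold changes that did not pass, and Hmgcs1 (0.19), Insig1 (-0.16) and Srebf2 (-0.21) stood nearer 0.

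The wider gates held 568 cycling T cells and gave more calls. Idi1 (1.96, adjusted p = 7.53e-24), Sqle (1.15, 1.94e-06), Cyp51 (1.10, 2.39e-10), Fdft1 (1.04, 2.81e-06) and Mvk (0.60, 0.0074) were higher in cycling cells, and Srebf2 was lower (-0.28, 0.00352). That is 6 of 8, where 53.6% of 11390 genes passed in either direction. Cyp51 then had 28.2, 29.8 and 19.0 CPM in the cycling cells of Cre-positive mice and 33.6, 18.8 and 18.8 CPM in those of Cre-negative mice. All 6 lay above the non-cycling range of 9.84 to 12.1 CPM. Cycling cells were deeper, with a median per mouse of 6292 to 10672 UMIs against 4461 to 5850.5 in non-cycling cells, and of 5212 to 7368 against 4364 to 5697 in the gates with Cst3. With each cell thinned to 2000 UMIs, neither Idi1 (0.75, adjusted p = 0.445) nor Sqle (0.37, 0.842) passed. The gates were drawn anew on the thinned counts, so the cells in them changed too, and the part of depth was not tested. With the strict gate the 2 genes did not pass either (0.157 and 0.335). In conventional CD4 cells alone Idi1 passed (1.25, adjusted p = 0.00739) and Sqle did not (0.20, 0.896).

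Over all 10785 genes tested in cycling T cells, 12.5% passed as higher and 23.6% in either direction. Of 20 synthesis enzymes tested there, 5 were higher and 0 lower, at a median of 0.41 beside -0.06 over all genes. Besides Idi1 and Sqle they were the phosphomevalonate kinase Pmvk (1.08, adjusted p = 1.43e-04), the farnesyl diphosphate synthase Fdps (0.64, 0.00332) and the sterol isomerase Ebp (0.57, 5.58e-05). Scd2 (1.44, 2.43e-12) was the only call among 8 fatty acid synthesis genes. The sterol carrier Stard4 rose (0.63), and Npc2 (-0.59) and Mylip (-0.70), a ligase that degrades the LDL receptor, fell. Mbtps2, a protease that frees SREBP2, also fell (-1.11, adjusted p = 0.0139).

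In B cells the same state held 96 cells, 10 to 21 per mouse, and Idi1 was called (1.40, SE 0.459, adjusted p = 0.0313). Its cycling values were 50.8, 25.4 and 35.1 CPM in Cre-positive mice and 0, 78.0 and 35.1 CPM in Cre-negative mice, from 0 to 9 UMIs per mouse. The mouse with none, Cre-negative 1, was also the one whose B cycling cells held haemoglobin RNA (107434 CPM). With haemoglobin-rich cells left out Idi1 stood at 1.40 (adjusted p = 0.028). Idi1 was 1 of 5 members tested, where 9.29% of 7742 genes passed, and it did not pass with Cre-negative 2 (adjusted p = 0.305), Cre-negative 3 (0.0545) or Cre-positive 1 (0.27) left out, with no low-count filter (0.0812) or with thinned cells (0.068). In the wider gates, with 275 cycling B cells, Idi1 had 48.5, 69.8 and 54.4 CPM in Cre-positive mice and 30.4, 72.5 and 92.9 CPM in Cre-negative mice. Non-cycling B cells lay between 10.6 and 16.0 CPM, with no overlap. There 6 of 8 members passed in either direction, all of them higher, where 50.3% of 9597 genes passed in either direction. They were Idi1 (2.16), Cyp51 (1.49), Sqle (1.25), Fdft1 (0.99), Mvk (0.99) and Hmgcs1 (0.98), with adjusted p from 7.19e-15 to 0.0132. Insig1 (0.22, adjusted p = 0.388) and Srebf2 (-0.19, 0.183) did not pass. These cells were also deeper, with a median per mouse of 6352 to 10340 UMIs against 3859 to 5132.

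Insig1 was higher in cells with signs of recent signalling, in T and in B cells. T cells with at least 3 UMIs of immediate early genes (Egr1, Egr2, Egr3, Nr4a1, Nr4a3 and Myc) had 25.2, 31.0 and 25.1 CPM of Insig1 in Cre-positive mice and 31.1, 24.9 and 34.6 CPM in Cre-negative mice. T cells with no such UMI had 21.2, 22.7 and 18.5 CPM in Cre-positive mice and 19.6, 18.7 and 16.5 CPM in Cre-negative mice. The states did not overlap (1.43-fold, log2 fold change 0.51, SE 0.0856, adjusted p = 1.31e-06). In B cells Insig1 had 29.3, 24.3 and 28.2 CPM with signal in Cre-positive mice and 32.9, 29.5 and 34.9 CPM in Cre-negative mice. Without signal the B cells lay between 12.6 and 24.4 CPM, and the highest of them, Cre-negative 2, was just above the lowest value with signal. The fold was 1.74 (log2 fold change 0.80, SE 0.184, adjusted p = 8.15e-04). Insig1 passed in the wider gates too, in T cells (0.46, adjusted p = 2.95e-08) and in B cells (0.46, 0.00484). In T cells it kept its call under all 18 alternatives run, and in B cells, of the 14 that gave it an adjusted p, it lost it with thinned cells (adjusted p = 0.321).

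In T cells with signal Sqle (0.51, adjusted p = 0.0147), Cyp51 (0.40, 0.00372) and Idi1 (0.31, 0.0301) were higher as well, so 4 of 8 members were called, where 29.1% of 10252 genes passed in either direction and 16.2% as higher. Sqle had 6.71 ± 1.80 CPM with signal and 4.55 ± 0.647 CPM without, and Cyp51 had 13.8 ± 1.05 and 10.2 ± 1.83 CPM (SD, n = 6). T cells with signal held less CD8 marker RNA (a mean of 203 CPM against 307 CPM) and more Foxp3 (40.0 CPM against 13.5 CPM). Idi1 did not pass with Cre-negative 1 (adjusted p = 0.117), Cre-positive 1 (0.109) or Cre-positive 3 (0.0952) left out, nor Sqle without Cre-negative 1 (0.0791), Cre-negative 2 (0.109) or Cre-positive 2 (0.0879). In conventional CD4 cells alone, which have no UMI of either, Insig1 (0.56, adjusted p = 3.59e-04) and Cyp51 (0.48, 0.0278) passed, and Idi1 (0.40, 0.131) and Sqle (0.36, 0.388) did not. With thinned cells Cyp51 had a log2 fold change of 0.0018 (adjusted p = 0.998) and Idi1 (0.976) and Sqle (0.349) did not pass, nor did these 2 with the strict gate (0.562 and 0.557) or without Myc (0.0705 and 0.068). Idi1 was also lost at the 5% limit (0.069), with no low-count filter (0.104) and without the mouse as a block (0.0584). With DESeq2 Cyp51 (0.0674), Idi1 (0.206) and Sqle (0.157) did not pass. In the wider gates Idi1 and Cyp51 passed again, Sqle did not (0.29, adjusted p = 0.125), and Mvk was lower (-0.41, 0.0125). Hmgcs1 stood at 0.03 in the gates with Cst3 and at -0.07 in the wider gates, Srebf2 at -0.02 in both, and neither passed.

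In B cells with signal, Insig1 was 1 of 5 members tested that passed, where 8.41% of 6990 genes did. The wider gates added Srebf2 (0.22, adjusted p = 0.0116) and a lower Mvk (-0.72, 0.0482), where 13.7% passed. Of 20 synthesis enzymes tested in T cells with signal, 3 were higher and 2 lower, where 29.1% of 10252 genes passed in either direction. Their median was 0.03 beside -0.00046 over all genes tested. The higher ones were Sqle, Cyp51 and Idi1, and the lower ones were Lbr (-0.24, adjusted p = 7.55e-08) and the methyl sterol oxidase Msmo1 (-0.33, 0.00836). Insig2, the other retention protein, rose (0.28, 0.0391), and so did Soat1, which stores cholesterol as esters (0.29, 0.0356), the fatty acid synthase Fasn (0.35, 0.00282) and Scd2 (0.28, 0.0264). Npc2 (-0.34, 2.51e-15) and Mylip (-0.27, 0.00141), 2 of 6 uptake and trafficking genes tested, fell, as did Nr1h2 (-0.17, 0.0449), which encodes the oxysterol receptor LXR-beta.

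**Figure D2:**
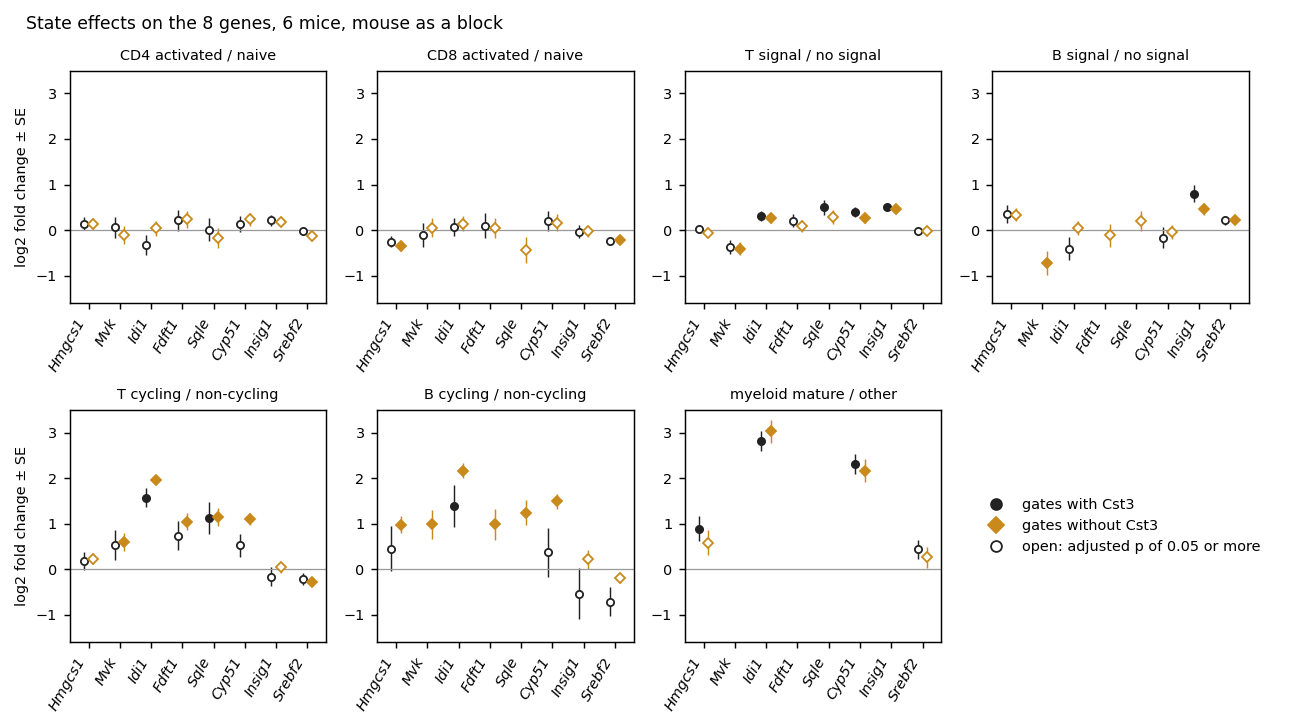
Log2 fold change ± SE (y axis) of each gene (x axis) for 7 state comparisons, with circles for gates with Cst3 and diamonds for gates without it. Filled marks have an adjusted p under 0.05. Idi1 is filled in the cycling, mature and T cell signal panels, Insig1 in both signal panels, and no circle is filled in the 2 activation panels.

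Activated against naive T cells gave no call among the members. Activated cells had at least 2 UMIs of S100a4, Cxcr3, Cxcr6, Ccl5, Itgb1, Maf and Tnfrsf4, naive cells had none and at least 2 UMIs of naive cell markers that include Ccr7 and Lef1, and dividing cells were left out. In conventional CD4 cells, 1192 activated against 7132 naive, 0 of 8 members passed with edgeR, 0 had an unadjusted p under 0.05, and 25.9% of 9097 genes passed. Log2 fold changes ran from -0.33 (Idi1, SE 0.213) to 0.21 (Insig1, SE 0.122). Insig1 had 31.7, 30.7 and 26.3 CPM in the activated cells of Cre-positive mice and 30.3, 37.0 and 28.0 CPM in those of Cre-negative mice. Naive cells had 23.9, 27.3 and 23.7 CPM in Cre-positive mice and 22.6, 22.8 and 20.4 CPM in Cre-negative mice. Insig1 was higher in the activated cells of each mouse, the ranges overlapped, and the adjusted p was 0.216. With total UMIs as the scale in place of TMM factors, 1 member, Insig1, passed.

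In CD8 cells, 1205 activated against 4216 naive, 0 of 7 members tested passed, where 10.1% of 8663 genes did. Hmgcs1 (-0.26, SE 0.120, adjusted p = 0.194) and Srebf2 (-0.24, SE 0.0952, adjusted p = 0.112) had an unadjusted p under 0.05. In the wider gates, where 14.8% of genes passed, both were lower in activated cells, Hmgcs1 at -0.35 (adjusted p = 0.00857) and Srebf2 at -0.21 (0.0467). Of the wider pathway, Soat1 (1.18, adjusted p = 2.08e-07), the cholesterol exporter Abca1 (0.83, 0.0404) and Scd2 (1.52, 2.16e-12) rose in activated CD4 cells. Lbr (-0.46), Npc2 (-0.77), Mylip (-0.43) and Acss2 (-0.93), an acetyl-CoA synthetase, fell. Among enzymes of synthesis that was 0 higher and 1 lower of 18 tested, at a median of -0.03 beside -0.0029 over all genes. In these CD4 cells 25.9% of 9097 genes passed in either direction. In activated CD8 cells Scd2 rose (0.44, adjusted p = 0.0479), Npc2 fell (-0.49), and 0 of 16 enzymes passed.

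Ordered by mean CPM over 11 gates that share no cell, the members had different top gates. Idi1, Cyp51, Hmgcs1 and Fdft1 were highest in mature myeloid cells, Sqle and Mvk in cycling T cells, Insig1 in regulatory T cells and Srebf2 in B cells with signal. The top gate exceeded the next in 6 of 6 mice for Idi1 and Cyp51 and in 5 for Hmgcs1. It did so in 4 mice for Sqle and Mvk and in 3 for Fdft1, Insig1 and Srebf2, so these tops are not resolved. Fdft1 had 31 UMIs in mature cells, and Sqle 34 and Mvk 30 in cycling T cells. For Idi1 the order ran from 160.4 ± 79.3 CPM in mature myeloid cells through 37.4 ± 26.0 in cycling B cells and 32.9 ± 12.7 in cycling T cells to 8.10 ± 1.41 in naive CD8 cells (SD, n = 6). For Cyp51 it ran from 100.2 ± 40.6 CPM in mature through 24.1 ± 6.20 in other myeloid cells to 7.10 ± 1.15 in naive CD8 cells. Neighbours in these orders overlapped between mice, apart from Cyp51 in mature against other myeloid cells and Sqle in naive CD4 against naive CD8 cells. Insig1 ran from 33.5 ± 12.9 CPM in regulatory T cells and 30.7 ± 3.69 in activated CD4 cells to 10.1 ± 8.91 in mature myeloid cells. Srebf2 spanned the least as a ratio of its highest to its lowest mean (2.15), from 83.9 ± 19.6 CPM in B cells with signal to 39.0 ± 6.73 in activated CD8 cells. Across the 11 gates Pearson's r was 0.92 for Idi1 with Cyp51, -0.66 for Idi1 with Insig1 and 0.13 for Idi1 with Srebf2. These are descriptions over gates of the same 6 libraries that differ in depth.

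**Figure D3:**
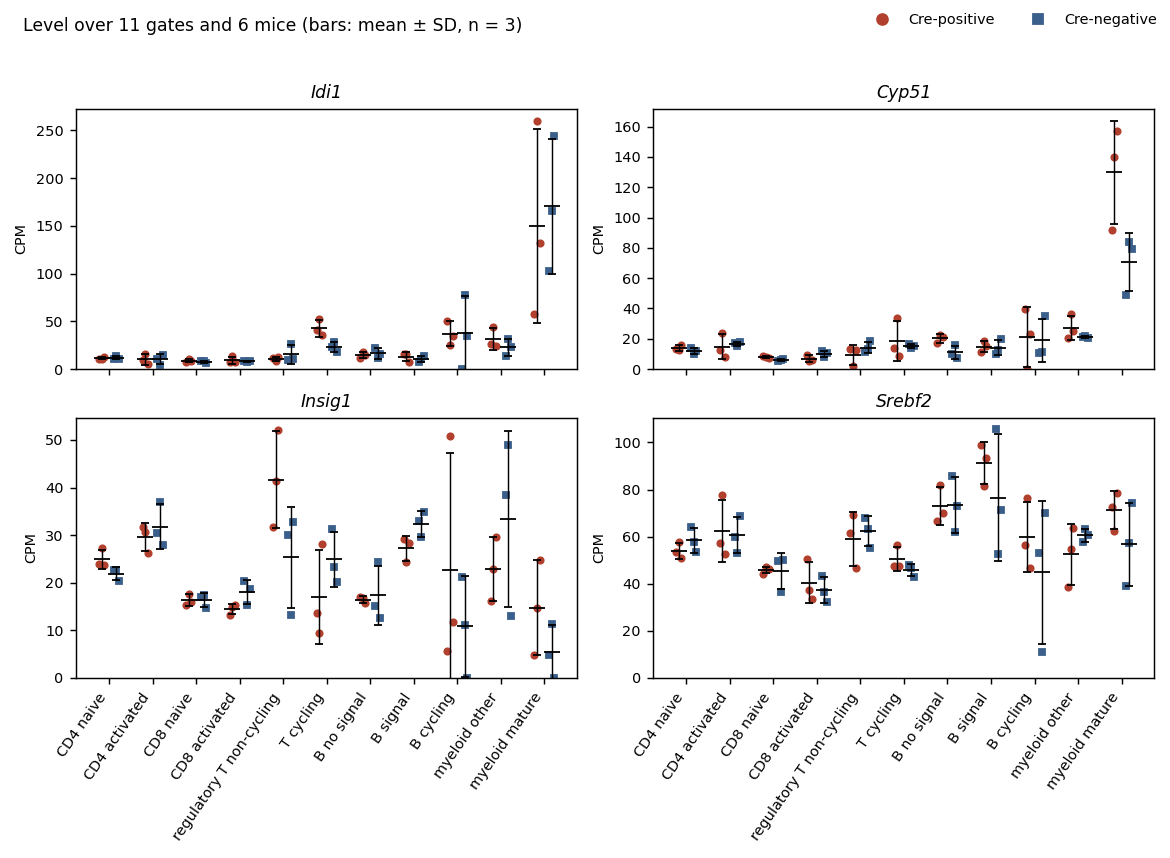
CPM of Idi1, Cyp51, Insig1 and Srebf2 (y axes) in 11 gates that share no cell (x axis), with a point per mouse and bars for mean ± SD over 3 mice, drawn down to 0 at most. Idi1 and Cyp51 peak in mature myeloid cells, where Insig1 is lowest by its mean over 6 mice.

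The 10 genes outside the pathway lists most like the mean profile of the 8 members, among 5070 genes of at least 20 CPM, were Pde6d (r = 0.93), Tmbim6 (0.93), Gosr2 (0.92), Cnih4 (0.92), Chmp2a (0.91), Syap1 (0.91), Mlf2 (0.91), Ehmt2 (0.90), Rsu1 (0.89) and Leprot (0.89). Pde6d stood at 55.1 CPM in mature myeloid cells and 19.5 CPM in naive CD8 cells. The measure was Pearson's r of log2(CPM + 1) over the 11 gates. The mean profile was lowest in cycling B cells (-1.18 in standardised units). There Sqle had 1, Mvk 4, Fdft1 5 and Insig1 9 UMIs over all mice, so zeros weigh on the profile. By mean CPM, Idi1 and Hmgcs1 had rank 2 in that gate. Of the 10 genes, only Tmbim6 (152.5 CPM) and Leprot (9.595 CPM) also had their lowest mean in this gate. Cnih4, at 54.11 CPM there, stood above its 28.48 CPM in naive CD8 cells. How far the likeness of the 10 genes rests on this gate was not tested.

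Cre-positive against Cre-negative mice, the contrast of the study, gave no call among the members. In T cells Cyp51 had 12.7, 12.2 and 12.3 CPM in Cre-positive mice and 11.9, 9.86 and 9.88 CPM in Cre-negative mice. The groups did not overlap (log2 fold change 0.24, SE 0.0889, unadjusted p = 0.0126 with edgeR), but the difference did not pass once adjusted over all genes tested (adjusted p = 0.814). Mvk had 6.31, 6.71 and 6.95 CPM in Cre-positive mice and 7.50, 7.46 and 7.52 CPM in Cre-negative mice, likewise without overlap (-0.16, SE 0.108, adjusted p = 0.914). The other 6 members overlapped. Of 8 members 0 passed in T cells and 1 had an unadjusted p under 0.05, where 0.0413% of 12116 genes passed (5 genes, 638 with an unadjusted p under 0.05). The 2 members without overlap compare with 10.6% of all genes tested. The members' median was 0.09, with SE from 0.0631 to 0.127. In the wider gates Cyp51 stood at 0.19 and Mvk at -0.10 in T cells (adjusted p = 0.84 and 0.905, edgeR).

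Conventional CD4 cells gave log2 fold changes from -0.07 (Srebf2) to 0.25 (Cyp51), and CD8 cells from -0.34 (Mvk) to 0.33 (Idi1), with a lowest adjusted p of 0.983 and 0.78. In conventional CD4 cells 1 member, Hmgcs1, did not overlap between groups, where 9.53% of genes did not. In CD8 cells 3 did not, Sqle, Idi1 and Mvk, where 10.5% did not. The calls over all genes were 0.0188% and 0.0587%. Naive and activated CD4 and CD8 cells and regulatory T cells, with 3 to 8 members tested in each, gave 0 calls with edgeR or DESeq2. Over all genes 0.0706% passed in naive CD4, 0.0537% in naive CD8 and 0.0128% in activated CD8 cells, and 0.0% in activated CD4 and regulatory T cells. In naive cells the largest was Mvk in CD8 cells (-0.47, SE 0.274, adjusted p = 0.889), and in regulatory T cells Insig1 had 0.47 (SE 0.294, adjusted p = 0.9). The wider gates gave -0.41 for this Mvk and 0.04 for this Insig1 (adjusted p = 0.826 and 0.993). The largest there were Sqle in naive CD8 cells (0.44, adjusted p = 0.861) and Hmgcs1 in regulatory T cells (0.52, 0.822).

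In B cells, which hold 1.86 CPM of Cd4 on average, Cyp51 had 16.4, 23.3 and 18.0 CPM in Cre-positive mice and 12.1, 13.4 and 10.5 CPM in Cre-negative mice. The groups did not overlap and the log2 fold change was the largest of the members there, 0.66 (SE 0.178), but it did not pass (adjusted p = 0.555, unadjusted p = 7.75e-04). Mvk had 6.15, 8.40 and 5.62 CPM in Cre-positive mice and 5.21, 5.53 and 3.21 CPM in Cre-negative mice, without overlap (0.50, SE 0.277, adjusted p = 0.997). No overlap was found for 9.21% of genes there, and 0 of 9311 genes passed with edgeR (0.0%), 406 of them with an unadjusted p under 0.05, and 1 passed with DESeq2. In myeloid cells, which held 105 CPM of Cd4 on average beside 140 CPM in T cells, Cyp51 had 0.52 (SE 0.270), Mvk -0.54 (SE 0.325) and Idi1 -0.15 (SE 0.369), each with an adjusted p of 1. Mvk was the member of 7 tested there without overlap, where 8.94% of genes had none, and 0.0126% of genes passed.

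The genotype effect did not differ detectably between classes or states. Between T and B cells the difference was -0.68 for Mvk (SE 0.295, adjusted p = 0.857) and -0.42 for Cyp51 (SE 0.193, adjusted p = 0.866), and these 2 members had an unadjusted p under 0.05. Over all genes 0.0328% passed. Between activated and naive cells the difference for Cyp51 was -0.32 in CD4 (SE 0.361) and -0.94 in CD8 cells (SE 0.424), with adjusted p of 0.999 and 1. In the wider gates it was 0.03 in CD4 (SE 0.276) and -0.53 in CD8 cells (SE 0.368). With the gates that keep Cst3, 0 of the 8 members passed in either, as 0.0% of all genes did.

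**Figure D4:**
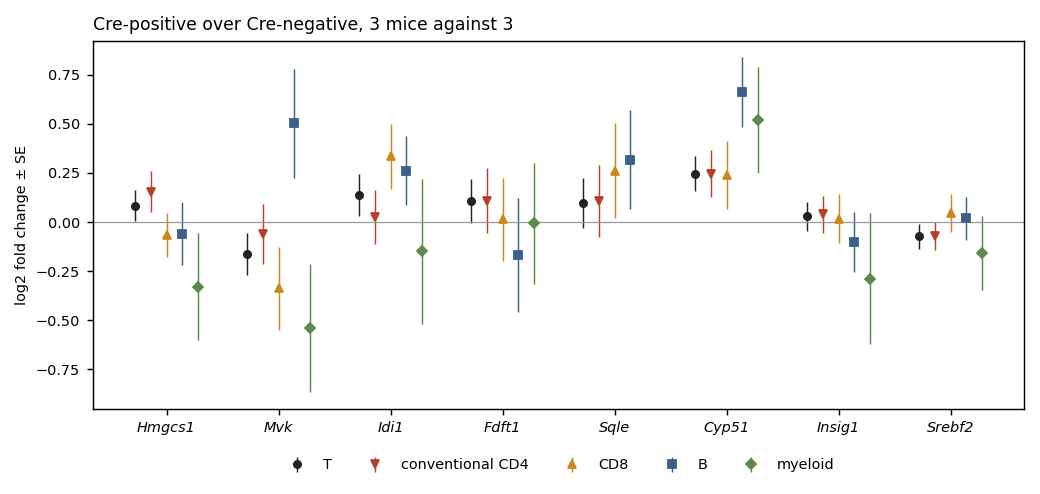
Log2 fold change ± SE (y axis) of Cre-positive over Cre-negative mice for each gene (x axis) in T, conventional CD4, CD8, B and myeloid cells, from 3 mice against 3. Cyp51 in B cells is the highest at 0.66, with an adjusted p of 0.555.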

How the data were processed

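RNA of single cells from the pancreatic lymph nodes of 6 mice was counted with the 10x Genomics droplet assay. The authors deposited raw UMI counts per gene and barcode, which, per the submitters' processing notes, came from Cell Ranger 6.1.2 with the mm10 build. The gene models, filters and use of strand are not given in the sources used here, and no cell annotation was used. The floxed gene and a few other genes of the lists are not reported here.

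Barcodes with at least 500 UMIs and 300 genes and at most 10% mitochondrial UMIs were kept, and the top Scrublet scores (scanpy 1.11.5) were removed as doublets at 0.8% per 1000 barcodes, 480 to 914 per library. A class needed at least 2 UMIs of its markers (T: Cd3d, Cd3e, Cd3g; B: markers that include Cd79a, Cd79b and Ms4a1) or 3 (myeloid: Lyz2, Csf1r, Cst3, Fscn1, Clec9a, Cd209a, C1qa, C1qb, C1qc, Itgax) and at most 1 of each other class. Conventional CD4 cells had Cd4 and no Cd8a, Cd8b1 or Foxp3, and cycling cells at least 2 UMIs of Mki67, Top2a, Cdk1, Birc5 and Ube2c, with none in non-cycling cells. Counts were summed per mouse and gate and tested with edgeR 4.0.16 in R 4.3.3 (TMM, filterByExpr, robust quasi-likelihood F test), Benjamini-Hochberg adjusted over all genes tested, with 0.05 as the threshold. Class and state contrasts had the mouse as a block. Genotype contrasts had none. The SE of an edgeR log2 fold change was its size divided by the square root of the F statistic. CPM is a gene's share of all UMIs summed, scaled to a common total, and is compared within a gene only.

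Alternatives were DESeq2 1.42.0, no low-count filter, doublets kept, a mitochondrial limit of 5%, stricter gates, cells thinned to 2000 UMIs (148 to 487 cells per library left out), other state limits and each mouse left out. Thinned cells were gated anew on the thinned counts, which gave 32722 T, 9364 B and 1086 myeloid cells. A further 4 were chosen after seeing the data: Cst3 left out of the gates, haemoglobin-rich cells left out, total UMIs as the scale, and conventional CD4 cells alone for T cell signal and cycling. The fits were tested on simulated data. Genes named outside the 8 are pathway genes past the threshold, at most 6 per list, and the 10 most alike by correlation. The members and lists were chosen with earlier results of these data known.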

Additional observations from a re-analysis of the deposited data

Results flagged for a closer look

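Sqle in the myeloid cells of Cre-positive 3 stood at 16.84 CPM, apart from the other 5 mice, which lay between 4.54 and 8.62 CPM. Its gap to the nearest mouse was 0.668 of the whole range, above Dixon's critical value for 6 mice. It was the 1 such value in 24 groups of 6 mice (the 8 genes in T, B and myeloid cells), where chance gives about 1 in 20. The higher Sqle in myeloid than in T cells was not called without this mouse (adjusted p = 0.155, edgeR).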

How the results depend on the processing

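Of 30 called results for single genes, 13 kept their direction and their call under every alternative that gave them an adjusted p, 17 lost the call at least once, and 1 reversed: Hmgcs1 in T against B cells was at -0.0079 with a mitochondrial limit of 5%. The members past the threshold in T against B were 7, against 4 with DESeq2, 4 at the 5% limit, 4 with the strict gate and 4 to 7 with a mouse left out. In cycling T cells they were 2, against 1 at the 5% limit, 0 with the strict gate, 0 with thinned cells, 6 without Cst3, 1 with at least 4 division UMIs, 1 in conventional CD4 cells and 1 to 3 with a mouse left out. In cycling B cells the 1 became 0 with no low-count filter, the strict gate or thinned cells, 6 without Cst3 and 0 to 1 with a mouse left out. Idi1 was not among the 3 members tested there with the strict gate, nor among the 2 at the 5% limit, where Srebf2 was the 1 called. In T cells with signal the 4 became 1 with DESeq2, 2 with the strict gate, 1 with thinned cells, 2 without Myc and 2 in conventional CD4 cells. In B cells with signal the 1 became 0 with DESeq2, the 5% limit, the strict gate or thinned cells and 3 without Cst3. At the 5% limit, with the strict gate and with DESeq2 only 1 member, Srebf2, had an adjusted p there, so that Insig1 lost its call with thinned cells alone among these settings. In mature myeloid cells the 3 became 0 with thinned cells, where 0 members passed the low-count filter. For activated cells, 0 became 1 in CD4 cells with total-count scaling, and in CD8 cells 2 without Cst3 and 0 to 1 with a mouse left out. Apart from the smaller numbers of genes tested, the causes were not tested.

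Genes called over the whole table moved most in cycling cells, from 2543 to 526 (strict gate) or 6110 (without Cst3) in T and from 719 to 312 or 4824 in B cells. Thinned cells gave 1242 genes in activated CD4 cells against 2356, 266 against 871 in CD8 cells and 930 against 2515 in mature myeloid cells. T cells with signal gave 1351 genes in conventional CD4 cells against 2986, and B cells with signal 134 (strict gate) to 1218 (without Cst3) against 588. Total-count scaling moved the median of all genes to 0.16 in activated CD4 cells (from -0.0029), to -0.36 in mature myeloid cells (from -0.06), to -0.17 in myeloid against B cells (from -0.01) and to -0.07 in cycling B cells (from -0.20). Higher and lower calls were then 2646 and 490 in activated CD4 cells (1248 and 1108 with TMM), 852 and 1999 in mature myeloid cells (1228 and 1287), 1623 and 893 in cycling T (1349 and 1194), 455 and 228 in cycling B (329 and 390) and 2161 and 835 in T cells with signal (1661 and 1325).

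In the genotype contrasts 0 members were called in 231 fits, alternatives included. The labels do not say what a replicate number shares. Deviations of same-numbered mice from their group means correlated at -0.206, -0.733 and -0.01 in T cells. In B cells they correlated at -0.12, -0.244 and 0.125. Deviations from a mean of 3 mice are tied to one another, so these values cannot decide whether the numbers pair the mice. With the replicate block 0 members were called, and genes called moved from 6 to 47 in CD8 cells, from 5 to 13 in naive CD8 and from 1 to 3 in activated CD8 cells. Without the mouse as a block, state and class contrasts kept their call for the members except Idi1 in T cells with signal (adjusted p = 0.0584). Higher and lower genes called then stood at 1166 and 724 in T cells with signal (1661 and 1325 with the block), 196 and 96 in B cells with signal (335 and 253) and 312 and 146 in activated CD8 cells (509 and 362). Over all alternatives, each mouse left out among them, genes called by genotype ranged from 1 to 46 in T, 1 to 10 in conventional CD4, 0 to 47 in CD8, 0 to 6 in B and 0 to 8 in myeloid cells. Depth limits the rare gates most: cycling B cells held 0 to 9 UMIs of Idi1 per mouse, and 4 members had too few UMIs to be tested in mature myeloid cells.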

Other observations

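Cre-positive and Cre-negative mice were not compared by a test within the 10 gates of division, signal and maturation, and their values were looked at after the fact. Of 60 pairs of a gate and a member that passed the low-count filter there, 10 showed no overlap between the groups, 5 with the higher values in Cre-positive mice and 5 with the lower. Non-cycling T and B cells include the cells with and without signal, so these pairs are not separate observations. Over all genes, 9.37% to 12.5% showed no overlap in these gates. Among the higher ones, Idi1 in cycling T cells had 40.8, 52.6 and 35.2 CPM in Cre-positive mice and 23.0, 28.0 and 17.7 CPM in Cre-negative mice. Cyp51 in mature myeloid cells had 92.1, 139.8 and 157.4 CPM in Cre-positive mice and 48.8, 83.7 and 79.5 CPM in Cre-negative mice. Cyp51 was the higher member in B cells without signal, non-cycling B cells and T cells without signal too. Among the lower ones, Hmgcs1 in cycling B cells had 11.3, 25.4 and 0 CPM in Cre-positive mice and 63.9, 44.6 and 35.1 CPM in Cre-negative mice. These Hmgcs1 values came from only 2, 2 and 0 UMIs against 6, 4 and 2 UMIs, in 10 to 21 cells per mouse. Insig1 in B cells with signal had 29.3, 24.3 and 28.2 CPM in Cre-positive mice and 32.9, 29.5 and 34.9 CPM in Cre-negative mice. The others were Mvk in non-cycling T cells, Srebf2 in T cells without signal and Hmgcs1 in B cells without signal. In the gates without Cst3 the Hmgcs1 values of B cells without signal lay the other way, at 17.5, 15.9 and 16.5 CPM in Cre-positive mice and 15.2, 12.7 and 14 CPM in Cre-negative mice.

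Naive CD8 and naive CD4 cells had ranges over 6 mice that did not overlap for 6 of 8 members, a comparison chosen after the values were seen and not tested. Over all 9221 genes compared, 13.3% had no overlap. Hmgcs1 was the 1 member of the 6 with the higher values in CD8 cells, at 25.6 ± 3.68 CPM in naive CD8 cells and 18.0 ± 1.48 CPM in naive CD4 cells (SD, n = 6). Sqle averaged 4.09 ± 0.613 CPM in naive CD8 cells and 6.14 ± 0.859 CPM in naive CD4 cells, and Idi1 8.10 ± 1.41 CPM in naive CD8 cells and 11.8 ± 1.48 CPM in naive CD4 cells (SD, n = 6). Cyp51 averaged 7.10 ± 1.15 CPM in naive CD8 cells and 12.9 ± 2.11 CPM in naive CD4 cells, and Insig1 16.4 ± 1.21 CPM in naive CD8 cells and 23.4 ± 2.26 CPM in naive CD4 cells (SD, n = 6). Srebf2 averaged 45.6 ± 4.96 CPM in naive CD8 cells and 56.3 ± 4.63 CPM in naive CD4 cells (SD, n = 6). Fdft1 and Mvk overlapped.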
